A study of Oryza sativa with 12 samples.

Results

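Transposon-annotated loci of rice (Oryza sativa) are described here across near-isogenic lines grown with and without high night temperature during grain filling. The members were the 957 of 50708 rows of the deposited expression table whose description contained "transposon", "transposase", "gag-pol" or "polyprotein". By the words of the description, 497 were retrotransposon rows and 460 were DNA transposon rows, and 0 rows carried both kinds. The rule used description words and no measured value, but it was chosen with earlier results of these data known.

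Both lines, XN0437S (sensitive to heat) and XN0437T (tolerant of it), were sampled without stress (control) and under high night temperature stress, with 3 RNA sequencing libraries in each of the 4 groups. Ribosomal RNA was removed before library construction, so transcripts without a poly(A) tail could be counted. The labels give the tissue only as rice and do not say whether libraries of a group came from separate plants, so a p-value reflects only how libraries of a group vary, and that variation may be technical. Library totals ranged from 85496090 to 100353570 counts, and 3 counts equalled 0.0281 to 0.0394 CPM (the count relative to the library total after scaling by the TMM factors of edgeR). The summed level of 5 endosperm markers (Glb1, Wx, GluB4, BEIIb and NAC20) was 18658 to 18820 CPM in the sensitive control, 6950 to 7058 under stress, 19679 to 19866 in the tolerant control and 6768 to 6908 under stress. All 5 were detected in every group and called lower under stress in both lines. The 3 embryo markers (OLE16, OLE18 and VP1) summed to 3392 to 3438, 2266 to 2446, 3411 to 3755 and 1838 to 1922 CPM in the same order of groups. OLE16 and OLE18 were called lower under stress in both lines, and VP1 was called in neither. The 5 leaf markers (RBCS2, RBCS4, RCA, CAB1R and CAB2R) summed to 568 to 693 CPM over all libraries, but they went in different directions. In each line RCA was called lower under stress and 2 of the other leaf markers were called higher. Of the 2 anther markers, 1 was detected in 1 group at no more than 0.0375 CPM while both were at 0 in the other groups. In bulk samples such as these, fewer cells of a type and less RNA per cell cannot be told apart.

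Retrotransposons move through an RNA copy that is reverse transcribed, and their gag-pol polyprotein holds the capsid, protease, integrase and reverse transcriptase. The Ty1-copia and Ty3-gypsy types differ in the order of these domains, and centromere-specific retrotransposons of rice accumulate in centromeric chromatin. DNA transposons are moved as DNA by a transposase; in plants the CACTA (En/Spm) and Mutator types are common. In plant genomes most copies are kept silent by DNA methylation, small RNAs and histone marks. Heat is known to activate a few elements, such as the Ty1-copia family ONSEN of Arabidopsis thaliana.

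Most of the loci had no counted read. How reads matching several copies of an element were counted was not examined here. A row without a count is therefore not shown to be silent. No read was counted in any of the 12 libraries for 654 members (68.3%), against 22.9% of all rows, and a further 193 had counts too low for the filter of the test. That left 110 members (11.5%) for testing, against 65.6% of all rows. Both classes were alike in this respect: 341 of 497 retrotransposon rows and 313 of 460 DNA transposon rows had no count, and 61 and 49 were tested. Members were longer than the table as a whole, with a median genomic span of 2932 bp against 1902 bp. Their distribution over the genome was uneven, with 166 members on chromosome 12 and 144 on chromosome 11 against 16 on chromosome 4; 22 and 14 of those on the first pair were tested.

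Types differed in the share detected. CACTA rows were the most numerous type with 380 members, of which 31 were tested and 265 had no count. Of 164 Ty3-gypsy rows 20 were tested, of 19 Ty1-copia rows 6, and of 18 centromere-specific rows 8. Among the smaller DNA transposon types, 3 of 16 Mutator rows, 3 of 6 Pong or PIF rows, the single Mariner row and 0 of 3 Ac or hAT rows were tested. How the locus was defined also went with detection: 76 of the 181 members with an assembled identifier were tested, against 34 of the 776 with an annotation identifier alone. Assembly builds loci from sequenced reads, so an assembled identifier is not independent of detection.

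**Figure D1:**
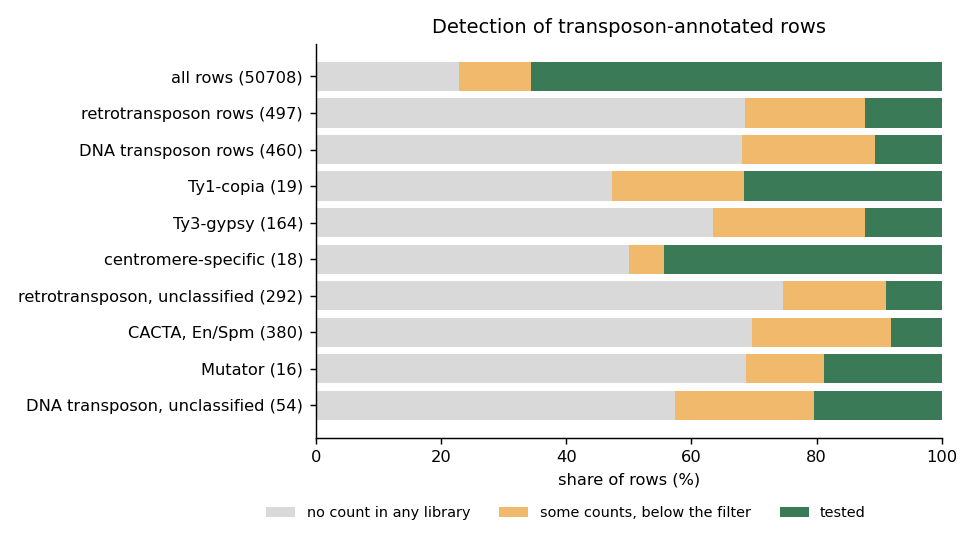
Share of rows (%) with no count in any library, with counts below the filter, and tested, for all rows and for the transposon-annotated classes and types, with the number of rows in parentheses. The tested share was 65.6% of all rows, 12.3% of retrotransposon rows and 10.7% of DNA transposon rows.

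The word transposon in a description did not always mean an element alone. Of the 110 tested rows, 10 also carried another protein description, and 5 merged several locus names. Such rows include LOC_Os12g12360, which is also described as la-related protein 6B (a family of RNA-binding proteins), and LOC_Os03g43990, also described as a BTB/POZ domain protein. These 10 rows held 28.2% of all member counts and, through the 7 among them that were DNA transposon rows, 59.7% of the DNA transposon counts. Gene Ontology terms for transposition, DNA integration or reverse transcription were attached to 6 of the 957 members and 2 of the 110 tested ones, and to 0 of the 34 tested members at a mean of 1 CPM or more. Terms for FK506-binding peptidyl-prolyl isomerases were attached to 17 tested members, all retrotransposon rows, and terms for SUMO-specific proteases to 11, also all retrotransposon rows. These are 15.5% and 10% of tested members, against 0.18% and 0.334% of all tested rows. Another 3 rows matched only because "polyprotein" stood in the description of another protein (disease resistance or antifreeze), and all 3 had no count.

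Counts were concentrated in few loci. One locus held 29.8% of the 1120899 counts of all members, 5 held 72.2% and 10 held 83.8%. On the deposited FPKM scale (fragments relative to transcript length and library total, which allows levels of different loci to be compared), the highest mean over 12 libraries was 81.7 for LOC_Os03g01320 and the next was 72.6 for LOC_Os12g15530, both described as Ty1-copia retrotransposon proteins. The order of this pair depended on the group: in the tolerant control libraries LOC_Os12g15530 had 129, 125 and 132 and LOC_Os03g01320 1.81, 74 and 76.4, and in the sensitive stress libraries LOC_Os12g15530 had 36.9, 39.2 and 36.6 and LOC_Os03g01320 138, 137 and 138. The Mutator row LOC_Os12g12360 followed at 41.3 and the Mutator row LOC_Os01g72610;LOC_Os01g72620 at 17.9. The CACTA rows LOC_Os03g42464 and LOC_Os03g05830 had 7.33 and 6.97, and the retrotransposon rows ChrSy.fgenesh.gene.7 and LOC_Os12g24250 had 5.94 and 5.87. The 10 highest ended with the DNA transposon rows LOC_Os10g37880;LOC_Os10g37899 at 2.6 and LOC_Os03g50900 at 2.33. The remaining 100 tested members were lower on this scale.

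Summed over all rows of a class, retrotransposon counts were lower on average under night heat in both lines, and DNA transposon counts were higher. Both held with TMM factors and with library totals alone. Without the best counted row of the class, each direction turned in 1 line with TMM factors. With library totals alone the retrotransposon direction turned in both lines without that row, and the DNA transposon direction in neither. The retrotransposon sum was 814, 772 and 583 CPM in the sensitive control libraries (723 ± 123, mean ± SD, n = 3) and 505, 494 and 476 under stress (492 ± 14.3). In the tolerant line it was 762, 874 and 944 in control (860.2 ± 91.4) and 447, 294 and 443 under stress (395 ± 87.2). Stress and control libraries did not overlap in either line, although with library totals alone as the scaling sensitive control replicate 3 fell below the sensitive stress libraries (488 to 692 against 530.2 to 576). The DNA transposon sum was 366, 369 and 365 CPM in the sensitive control (366 ± 2.22) and 415, 443 and 441 under stress (433 ± 15.7). In the tolerant line it was 420.5, 401 and 343 (388 ± 40.1) and 451, 432 and 421 (435 ± 15.3). These groups did not overlap either, although the highest tolerant control and the lowest tolerant stress library were close. No test was made on these sums, since the members were chosen with earlier results known.

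**Figure D2:**
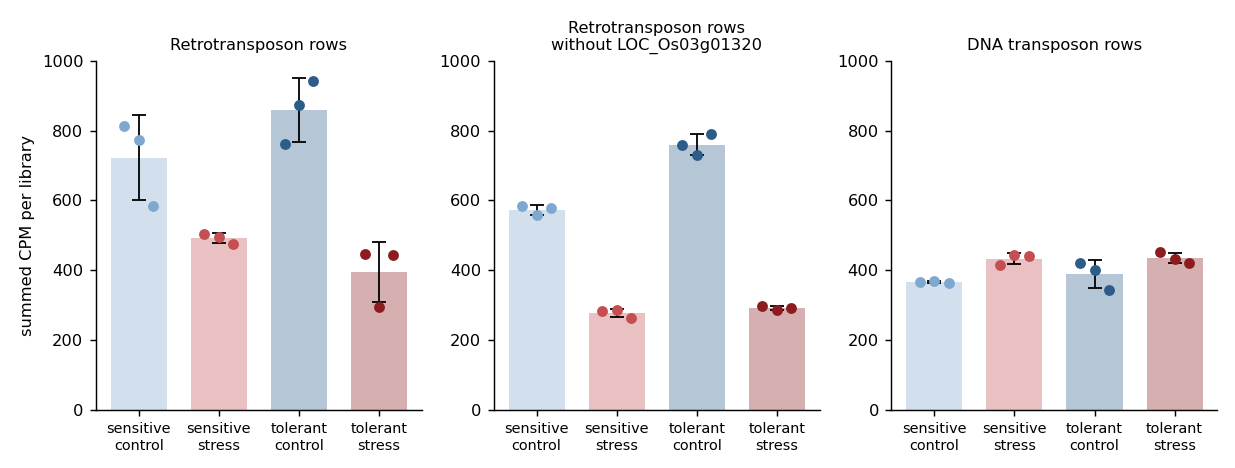
Summed CPM per library (points), with the mean (bar) and SD (line) of 3 libraries in each group, for retrotransposon rows, the same without LOC_Os03g01320, and DNA transposon rows. Without that locus the retrotransposon sum was 573 and 277 CPM in the sensitive control and stress groups and 760.0 and 291 in the tolerant ones.

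The sums rested on the leading loci. Without LOC_Os12g15530, the member with the most counts, the retrotransposon sum was 166 to 386 CPM in the sensitive control and 344 to 366 under stress, and 176 to 320.0 and 157 to 302 in the tolerant line, so that the groups overlapped in both lines and the mean was higher under stress in the sensitive line (309 and 355). With library totals alone the mean without that row was higher under stress in both lines, at 263 and 401 in the sensitive and 242 and 286 in the tolerant line. Over the 494 retrotransposon rows with a mean under 30 CPM the sum was 113 to 124 and 95.9 to 107 CPM in the sensitive line and 124 to 135 and 110.1 to 116 in the tolerant line. With TMM factors these were lower under stress without overlap, but with library totals alone the direction turned in the sensitive line, where control libraries were at 95.7 to 104 and stress libraries at 107 to 123, and the groups overlapped in the tolerant line (106 to 132 and 122 to 131). Without LOC_Os12g12360, the best counted DNA transposon row, the DNA transposon sum was 268 ± 0.304 and 291 ± 11.5 CPM in the sensitive line, and the direction turned in the tolerant line, with 281 ± 33.2 for control libraries and 275 ± 11.2 for stress libraries (mean ± SD, n = 3, TMM factors). With library totals alone the tolerant libraries without that row were at 206 to 303 in control and 297 to 325 under stress, which overlapped. Their mean was still higher under stress (259 and 313), as it was in the sensitive line (227 and 329). For DNA transposons, counting only the 453 rows in which every description named a transposon gave a mean of 143 CPM in the sensitive control libraries and 160.3 to 182 under stress. The same rows gave 113 to 179.9 and 179 to 194 in the tolerant line, which overlapped.

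Of the 110 tested members, 11 were higher and 8 lower under stress in the sensitive line (edgeR quasi-likelihood test, Benjamini-Hochberg adjusted over 33281 rows, adjusted p below 0.05). Over all tested rows 16.3% were higher and 15.9% lower, or 32.1% in either direction, against 17.3% of tested members. In the tolerant line 7 were higher and 18 lower, which is 22.7% of tested members against 33.2% of all tested rows (16.7% higher, 16.6% lower). The lower share of calls went with low counts: among members at a mean of 1 CPM or more, 15 of 34 were called in the sensitive line and 16 of 34 in the tolerant line, or 44.1% and 47.1%. For all rows at that level the shares were 44.3% and 45.9%, so members at this level were called about as often as the table as a whole. Of the 76 members under 1 CPM, 4 and 9 were called, against 11% and 11.3% of all rows under 1 CPM.

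By class, 4 retrotransposon rows were higher and 7 lower in the sensitive line, and 2 higher and 13 lower in the tolerant line, of 61 tested. Of 49 DNA transposon rows 7 were higher and 1 lower in the sensitive line, and 5 higher and 5 lower in the tolerant line. The split between higher and lower depended on the scaling. Of the called members 57.9% were higher in the sensitive line and 28% in the tolerant line with TMM factors, 77.3% and 48% with library totals alone, and 71.4% and 62.5% on log2(FPKM + 1). The median log2 fold change of retrotransposon rows was -0.40 and -0.29 in the sensitive and tolerant lines with TMM factors, and 0 and 0.02 with library totals alone, which moved the median of all rows from 0.04 to 0.46 and from 0.05 to 0.37. That of DNA transposon rows was -0.15 and -0.40 with TMM factors, and 0.26 and -0.08 with library totals.

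The 18 falls in the tolerant line were sensitive to single libraries: they became 11 without tolerant control replicate 2, 11 without tolerant stress replicate 1, 10 without tolerant stress replicate 2 and 11 without tolerant stress replicate 3. Of those 18, 9 were members under 1 CPM. Of the members called in the sensitive line 16 of 19 (84.2%) were also called in the tolerant line, which is 64% of the 25 called there. For all rows the shares were 72.0% and 69.6%. The stress comparisons of the lines share no libraries. Among the 16 members 7 were higher in both lines, 7 lower in both, and 2 changed in opposite directions. The 2 were LOC_Os03g43990 and LOC_Os03g48360, a member under 1 CPM. The calls of LOC_Os03g48360 were lost in 13 of 18 alternative settings in the sensitive and 8 of 18 in the tolerant line.

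The largest change in counts was at LOC_Os12g15530 (chromosome 12, 8869430 to 8875070, plus strand), described as a Ty1-copia retrotransposon protein. It gave 428, 396 and 417 CPM in the sensitive control libraries and 138, 141 and 132 under stress. The tolerant line gave 587, 568 and 624 in control and 145, 138 and 146 under stress. All 6 stress libraries lay below all 6 control libraries, and the tolerant controls lay above the sensitive controls. The log2 fold change was -1.59 (SE 0.05, adjusted p 5.29e-10) in the sensitive line and -2.05 (SE 0.05, adjusted p 4.23e-11) in the tolerant line. In control the tolerant line was higher by 0.52 (SE 0.05, adjusted p 0.00014), and under stress the difference was 0.06 (SE 0.05, adjusted p 0.763), so the fall was larger in the tolerant line, with a difference of log2 fold changes of -0.46 (SE 0.07, adjusted p 0.0048). The Gene Ontology terms of this row are copper ion binding and oxidoreductase activity oxidizing metal ions, with no term for transposition. The summed level of the endosperm markers fell with it, and their part in this result was not tested. Another row of the same locus name overlaps it.

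The other highly counted Ty1-copia row, LOC_Os03g01320 (chromosome 3, 219719 to 221070, plus strand), did not follow the groups. It gave 230.0, 214 and 5.56 CPM in the sensitive control, 221, 209.8 and 212 in the sensitive stress, 3.5, 143 and 154 in the tolerant control and 151, 7.31 and 152 in the tolerant stress libraries. In each of 3 groups 1 library was far below the other 2, while the sensitive stress libraries were alike. The log2 fold change was 0.52 (SE 1.25, adjusted p 0.805) in the sensitive and 0.04 (SE 1.25, adjusted p 0.985) in the tolerant line, both with a wide error. Of 5512 tested rows with a mean of at least 20 CPM, it was the only 1 in which these 3 libraries were all more than 5-fold below every other library, and 0 rows were 5-fold above in them. The 3 libraries were picked from the values of this row. Rows low in other libraries were not counted, so how rare such drops are is not shown. Its Gene Ontology terms include lipid transport and lipid binding. The cause of this pattern was not tested.

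**Figure D3:**
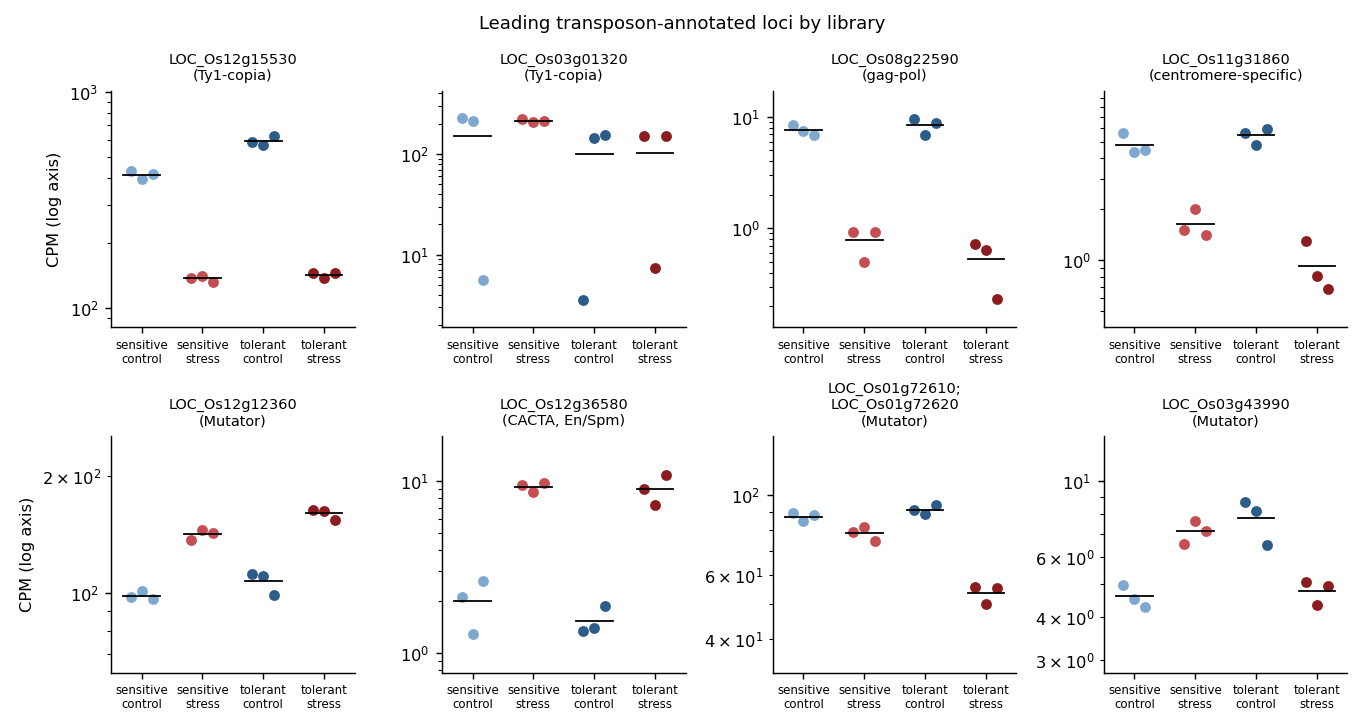
CPM on log axes in each of the 3 libraries of each group (points) with the group mean (line) for 8 transposon-annotated loci. LOC_Os12g15530, LOC_Os08g22590 and LOC_Os11g31860 were lower in all stress libraries of both lines, LOC_Os12g12360 and LOC_Os12g36580 were higher, LOC_Os01g72610;LOC_Os01g72620 was lowest in the tolerant stress group, and LOC_Os03g43990 changed in opposite directions.

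Of the 18 retrotransposon rows at a mean of 1 CPM or more, 2 were higher and 6 lower in the sensitive line and 2 higher and 7 lower in the tolerant line. In the sensitive line this was 44.4% of these rows. Of all rows at that level 44.3% and 45.9% were called in the sensitive and tolerant lines. The row LOC_Os08g22590 (chromosome 8, 13591924 to 13596105, minus strand), described as a putative gag-pol polyprotein, gave 8.45, 7.44 and 6.82 CPM in the sensitive control and 0.928, 0.496 and 0.923 under stress. In the tolerant line it gave 9.49, 6.8 and 8.89 and 0.725, 0.645 and 0.235. Every stress library was below every control library, and the log2 fold changes of -3.27 (SE 0.36, adjusted p 1.67e-05) and -3.97 (SE 0.37, adjusted p 3.55e-06) were the most negative among members at 1 CPM or more. Another row of the same locus name overlaps it.

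Of 8 tested centromere-specific rows, 2 were lower in both lines. Over all tested rows 15.9% were lower in the sensitive and 16.6% in the tolerant line. Both rows had a mean of 1 CPM or more, where 44.3% and 45.9% of all rows were called in either direction. The row LOC_Os11g31860 (chromosome 11, 18722691 to 18725281, minus strand) gave 5.64, 4.33 and 4.43 CPM in the sensitive control and 1.5, 1.99 and 1.4 under stress, and 5.64, 4.77 and 5.95 and 1.31, 0.809 and 0.676 in the tolerant line. Groups did not overlap in either line, with log2 fold changes of -1.55 (SE 0.25, adjusted p 0.000385) and -2.55 (SE 0.26, adjusted p 7.4e-06). The row LOC_Os12g21470 (chromosome 12, 12013031 to 12015177, plus strand) fell from 1.33 ± 0.423 to 0.546 ± 0.209 CPM in the sensitive line (mean ± SD, n = 3) and from 2.6 ± 0.00797 to 0.84 ± 0.422 in the tolerant line. Its log2 fold changes were -1.29 (SE 0.40, adjusted p 0.0279) and -1.63 (SE 0.40, adjusted p 0.00711), and the first lost its call in 6 of 20 alternative settings. Its adjusted p was 0.109 without sensitive control replicate 3, 0.0665 without sensitive stress replicate 1 and 0.102 without sensitive stress replicate 2 in the edgeR fit. The remaining 6 rows did not pass the test in either line. The summed level of the 18 centromere-specific rows was 9.9 to 12.5 CPM and 4.26 to 6.7 under stress in the sensitive line, and 12.8 to 14.3 and 3.45 to 5.78 in the tolerant line.

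Of 20 tested Ty3-gypsy rows, 2 were lower in the sensitive line and 4 in the tolerant line, or 10% and 20% against 15.9% and 16.6% of all tested rows. At an unadjusted p below 0.05, 5 and 6 of the 20 differed in either direction, as did 13738 and 13993 of all 33281 rows. The best counted of those that fell was LOC_Os11g12710 (chromosome 11, 7178371 to 7181200, minus strand), with 1.59, 1.93 and 1.82 CPM in the sensitive control and 0.811, 0.598 and 0.791 under stress, and 3.02, 1.98 and 1.98 and 1.36, 0.78 and 1.18 in the tolerant line. Groups did not overlap, and the log2 fold changes were -1.28 (SE 0.29, adjusted p 0.00436) and -1.07 (SE 0.28, adjusted p 0.011). The latter had an adjusted p of 0.0595 without tolerant control replicate 1 in the edgeR fit and also lost its call with library totals alone. On log2(FPKM + 0.1) both calls were lost, and on log2(FPKM + 1) the sensitive call was lost too. The summed level of the 164 gypsy rows was 7.29 to 9.85 and 6.38 to 7.82 CPM in the sensitive line, which overlapped. In the tolerant line it was 10.2 to 11.3 and 6.15 to 8.42. With library totals alone the sensitive groups overlapped too, and the direction of the mean turned (7.46 in control and 7.76 under stress).

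The rows LOC_Os08g22590, LOC_Os11g31860, LOC_Os12g21470 and LOC_Os11g12710 share the Gene Ontology terms for protein desumoylation and SUMO-specific protease activity, which removes the small modifier SUMO from proteins. Of the 11 tested members with these terms, 4 were lower in each line, while 15.9% and 16.6% of all tested rows were lower in the sensitive and tolerant lines. The fifth with a mean of 1 CPM or more, the centromere-specific row LOC_Os10g17580, had log2 fold changes of -0.54 (SE 0.35, adjusted p 0.28) and -0.74 (SE 0.35, adjusted p 0.133). This group was noticed after its values were seen and no test was made on it. Of the 17 members with FK506-binding terms, 1 was higher in the sensitive line and 3 were lower in the tolerant line, all 4 of them under 1 CPM except LOC_Os10g13390. Of all tested rows 16.3% were higher in the sensitive line and 16.6% lower in the tolerant line.

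Among unclassified retrotransposon rows, ChrSy.fgenesh.gene.7 (on the unplaced sequence Sy) was 21.3, 27.3 and 23.3 CPM in the sensitive control and 18.5, 10.8 and 15.8 under stress, and 29, 23 and 28.6 and 17.7, 20.2 and 18.6 in the tolerant line. Its log2 fold changes were -0.68 (SE 0.17, adjusted p 0.00938) and -0.51 (SE 0.17, adjusted p 0.0361). The groups did not overlap, and the call in the tolerant line was lost in 9 of 20 alternative settings, with an edgeR adjusted p of 0.0552 to 0.108 in the 5 of them that left out tolerant control replicate 1 or 3 or any 1 tolerant stress library. With library totals alone the calls of both lines were lost. The row LOC_Os12g24250 was at 40.9 ± 3.71, 37.6 ± 1.53, 39 ± 1.34 and 36.6 ± 1.92 CPM (mean ± SD, n = 3, in the order sensitive control, sensitive stress, tolerant control, tolerant stress). Its log2 fold changes of -0.12 (SE 0.08, adjusted p 0.279) and -0.09 (SE 0.08, adjusted p 0.421) did not pass the test. The row LOC_Os10g13390, outside the rule for named loci and chosen after its values were seen, was lower in the tolerant line, with a log2 change of -0.83 (SE 0.20, adjusted p 0.00603), and gave -0.55 (SE 0.20, adjusted p 0.0539) in the sensitive line. The call was lost with library totals alone and on both FPKM scales.

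The 2 retrotransposon rows at 1 CPM or more that rose in both lines both carried another description. The row LOC_Os04g26360;LOC_Os04g26400;LOC_Os04g26380 merges 3 locus names, 1 a putative polyprotein, and its Gene Ontology terms include aspartic-type endopeptidase activity and proteolysis. It gave 8.11, 6.85 and 6.83 CPM in the sensitive control and 15.5, 15.9 and 18.2 under stress, and 9.61, 8.36 and 9.25 and 14.7, 18.5 and 16.3 in the tolerant line, without overlap. The log2 fold changes were 1.19 (SE 0.12, adjusted p 9.04e-06) and 0.86 (SE 0.12, adjusted p 0.000108). The row LOC_Os01g68160 is also described as histone deacetylase HDT2 and carries terms for ribonuclease III and small RNA production. It rose from 11.9 ± 2.05 to 17.5 ± 1.67 CPM in the sensitive line and from 9 ± 2.46 to 18.1 ± 0.767 in the tolerant line (mean ± SD, n = 3). The log2 fold changes were 0.56 (SE 0.18, adjusted p 0.0305) and 1.01 (SE 0.18, adjusted p 0.000807), and the first lost its call without sensitive control replicate 1, sensitive stress replicate 2 or sensitive stress replicate 3, with an edgeR adjusted p of 0.0681 to 0.115. Which of the merged or overlapping genes the counts come from cannot be told apart in this table.

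Among the 16 DNA transposon rows at a mean of 1 CPM or more, 7 rose in the sensitive line, and 5 rose and 2 fell in the tolerant line. This was 43.8% of these rows in each line, against 44.3% and 45.9% of all rows at that level. Of 31 tested CACTA rows, 2 were higher and 1 lower in the sensitive line, and 2 higher and 3 lower in the tolerant line, a called share of 9.68% and 16.1% against 32.1% and 33.2% of all tested rows. The row LOC_Os12g36580 (chromosome 12, 22392136 to 22398929, plus strand), with Gene Ontology terms for serine-type endopeptidase activity and cell wall, gave 2.11, 1.29 and 2.62 CPM in the sensitive control and 9.44, 8.69 and 9.7 under stress. In the tolerant line it gave 1.35, 1.4 and 1.89 and 8.97, 7.26 and 10.9. Stress libraries lay above all controls, with log2 fold changes of 2.21 (SE 0.25, adjusted p 2.11e-05) and 2.55 (SE 0.25, adjusted p 5.76e-06).

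The CACTA row LOC_Os03g05830 (chromosome 3, 2922767 to 2931513, minus strand), annotated with nucleic acid binding and mRNA processing, gave 11.6, 15.4 and 12.8 CPM in the sensitive control and 28.7, 27.5 and 30.1 under stress, and 14.5, 12.7 and 12.7 and 32.9, 29.1 and 27.4 in the tolerant line. It rose in both lines without overlap, by 1.11 (SE 0.11, adjusted p 8.79e-06) and 1.16 (SE 0.11, adjusted p 5.15e-06) on the log2 scale. The best counted CACTA row, LOC_Os03g42464, gave 69.3, 67 and 66.2 CPM in the sensitive control, 71.9, 77.1 and 77.9 under stress, 101, 89.2 and 48.7 in the tolerant control and 89.5, 74.5 and 83 under stress. Tolerant control replicate 3 was the lowest of its 12 libraries, and log2 fold changes of 0.16 (SE 0.19, adjusted p 0.57) and 0.05 (SE 0.19, adjusted p 0.873) did not pass the test.

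Unclassified DNA transposon rows were 3 higher of 11 tested in the sensitive line and 2 higher in the tolerant line. In the edgeR fit 4 and 4 differed at an unadjusted p below 0.05, as did 13738 and 13993 of all 33281 rows. Of all tested rows 16.3% and 16.7% were higher in the sensitive and tolerant lines. The row LOC_Os12g10190 (chromosome 12, 5387790 to 5391708, plus strand), annotated with kinase activity, gave 0.301, 0.813 and 0.787 CPM in the sensitive control and 3.97, 4.31 and 3.26 under stress, and 0.656, 1.03 and 0.898 and 3.82, 4.45 and 3.86 in the tolerant line. Its log2 fold changes were 2.60 (SE 0.33, adjusted p 5.89e-05) and 2.23 (SE 0.32, adjusted p 0.000149). The row LOC_Os11g05360 (chromosome 11, 2379139 to 2380413, plus strand) rose from 0.712 ± 0.141 to 2.79 ± 0.243 CPM in the sensitive line and from 0.52 ± 0.196 to 2.04 ± 0.138 in the tolerant line (mean ± SD, n = 3), by 1.97 (SE 0.30, adjusted p 0.000274) and 1.97 (SE 0.30, adjusted p 0.000256). Neither row had overlapping groups.

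The row LOC_Os08g22389 (chromosome 8, 13504597 to 13507673, plus strand), described only as a putative transposon protein, gave 2.92, 1.71 and 2.6 CPM in the sensitive control and 7.02, 6.54 and 7.41 under stress, and 4.34, 4.97 and 3.4 and 6.1, 6.62 and 5.43 in the tolerant line. It rose in the sensitive line by 1.54 (SE 0.21, adjusted p 9.35e-05) on the log2 scale and gave 0.51 (SE 0.20, adjusted p 0.0674) in the tolerant line. The tolerant controls were above the sensitive controls by 0.81 (SE 0.20, adjusted p 0.0365), a call lost in 11 of 20 alternative settings, 8 of which left out 1 library, with an edgeR adjusted p of 0.053 to 0.126 in those 8 and 0.00556 to 0.126 over all alternatives. The difference between the responses was -1.02 (SE 0.28, adjusted p 0.0893) and did not pass the test. The rows LOC_Os10g37880;LOC_Os10g37899, also described as a member of the 2OG-Fe oxygenase family, and LOC_Os03g50900 did not pass the test in either line, with log2 fold changes of -0.06 (SE 0.10, adjusted p 0.689) and 0.11 (SE 0.10, adjusted p 0.447) for the former. For the latter they were 0.21 (SE 0.36, adjusted p 0.72) and 0.91 (SE 0.37, adjusted p 0.0778).

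All 3 tested Mutator rows changed in the tolerant line, though not in the same direction. They had a mean of 1 CPM or more, where 45.9% of all rows were called in that line. The row LOC_Os12g12360 (chromosome 12, 6799196 to 6806977, minus strand), also described as la-related protein 6B, gave 97.9, 101 and 96.5 CPM in the sensitive control and 137, 146 and 143 under stress, and 112, 111 and 99.2 and 164, 163 and 154 in the tolerant line. It rose in both lines without overlap, by 0.52 (SE 0.06, adjusted p 2.35e-05) and 0.58 (SE 0.06, adjusted p 8.16e-06). The row LOC_Os01g72610;LOC_Os01g72620 (chromosome 1, 42128326 to 42135953, minus strand) merges a putative MuDR transposase with an uncharacterized protein, and its Gene Ontology terms include glycosyl transferase activity. It gave 89.2, 84.8 and 88.2 CPM in the sensitive control and 79.1, 81.7 and 74.5 under stress, and 90.8, 88.6 and 94.2 and 55.6, 49.9 and 55.4 in the tolerant line. The 3 tolerant stress libraries were below the other 9. The log2 fold change was -0.16 (SE 0.06, adjusted p 0.0794) in the sensitive line and -0.77 (SE 0.06, adjusted p 1.21e-06) in the tolerant line, and the difference between them was -0.61 (SE 0.09, adjusted p 0.00284).

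The Mutator row LOC_Os03g43990 (chromosome 3, 24701063 to 24706728, minus strand), also described as a BTB/POZ domain protein, changed in opposite directions. It gave 4.98, 4.54 and 4.29 CPM in the sensitive control and 6.57, 7.65 and 7.16 under stress, and 8.69, 8.17 and 6.48 and 5.07, 4.33 and 4.95 in the tolerant line. The sensitive stress libraries were above the sensitive controls, and the tolerant stress libraries were below the tolerant controls. The log2 fold changes were 0.63 (SE 0.14, adjusted p 0.00429) in the sensitive line and -0.70 (SE 0.14, adjusted p 0.00191) in the tolerant line, the latter lost with library totals alone, and the difference between them was -1.33 (SE 0.20, adjusted p 0.00332). All 3 Mutator rows with counts above the filter carried another description, so the counts cannot be assigned to a transposase.

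**Figure D4:**
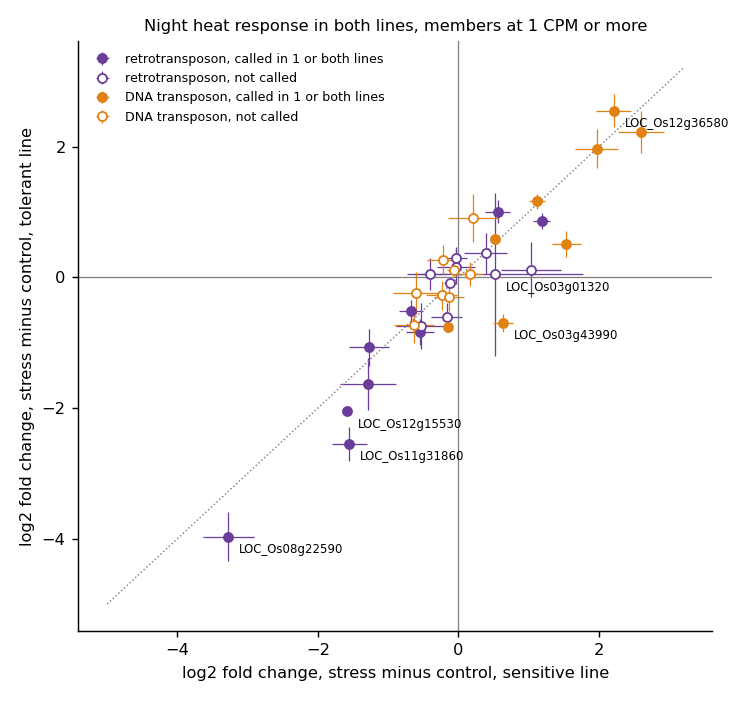
Log2 fold change, stress minus control, in the sensitive line (x axis) against the tolerant line (y axis) for the 34 tested members at a mean of 1 CPM or more, with standard errors as lines and the dotted line marking equal change. Filled points were called in at least 1 line; LOC_Os03g43990 lay at 0.63 and -0.70, and LOC_Os08g22590 at -3.27 and -3.97.

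Between the lines few members differed. In control 3 of 110 were higher in the tolerant line and 0 lower, against 5.42% of all tested rows called in either direction (2.53% higher, 2.89% lower; 8.08% at 1 CPM or more and 0.813% below). The 3 were LOC_Os12g15530, LOC_Os08g22389 and LOC_Os03g43990, the last by 0.76 (SE 0.14, adjusted p 0.00825). DESeq2 called 6 higher and 0 lower, and 16 members had an unadjusted p below 0.05 in the edgeR fit. Under stress 0 were higher and 2 lower, against 3.4% of all rows (1.71% higher, 1.69% lower; 5.22% at 1 CPM or more and 0.246% below), while DESeq2 called 1 higher and 2 lower, and 12 members had an unadjusted p below 0.05. The 2 were LOC_Os01g72610;LOC_Os01g72620 with -0.55 (SE 0.06, adjusted p 0.000377) and LOC_Os03g43990 with -0.57 (SE 0.14, adjusted p 0.0453), and the latter call was lost in 16 of 20 alternative settings, among them 11 of the 12 fits that left out 1 library, all but that without tolerant control replicate 3, with an edgeR adjusted p of 0.054 to 0.165 in those 11 and 0.0102 to 0.165 over all alternatives. Each of these comparisons shares libraries with the stress comparisons above.

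The stress response differed between the lines for 4 of 110 members, each more negative in the tolerant line, and for 2.61% of all tested rows (1.27% higher, 1.34% lower; 3.93% at 1 CPM or more and 0.304% below). In the other direction 0 members were called by edgeR and 0 by DESeq2, and 9 members had an unadjusted p below 0.05 in either direction. The 4 were LOC_Os12g15530, LOC_Os01g72610;LOC_Os01g72620, LOC_Os03g43990 and the low-count row LOC_Os03g48360. LOC_Os03g48360 was at 0 in 6 libraries and passed the filter through the other 6, so its call supports no statement. Of the other 3, LOC_Os12g15530 was the only row in which every description named a transposon. That row carried no Gene Ontology term for transposition.

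Called members under 1 CPM rested on few counts and are given as counts. The unclassified retrotransposon row LOC_Os03g48360 had 0, 0 and 0 counts in the sensitive control, 9, 18 and 8 under stress, 14, 14 and 7 in the tolerant control and 0, 0 and 0 under stress. It was detected in the sensitive stress and the tolerant control libraries and in no others; its difference between responses lost its call in 16 of 18 alternative settings (adjusted p 0.00108 to 0.395), among them all 12 that left out 1 library. The gypsy row LOC_Os06g31630 had 19, 16 and 29 counts in the tolerant control and 0 in the other 9 libraries. The unclassified row LOC_Os12g23010 had 9, 0 and 6 in the sensitive control, 17, 23 and 16 in the tolerant control and 0 in all stress libraries. These rows were chosen after their values were seen.

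Among the other low rows, ChrUn.fgenesh.gene.7 (gypsy), LOC_Os12g23840 and LOC_Os11g42980 (CACTA) had 0 counts in all 3 tolerant stress libraries. In the tolerant control libraries ChrUn.fgenesh.gene.7 had 9, 20 and 19 counts, LOC_Os12g23840 had 14, 38 and 10, and LOC_Os11g42980 had 13, 12 and 10. The unclassified row LOC_Os03g56040 had 67, 55 and 35 counts in the tolerant control and 0, 0 and 8 under stress. The unclassified row LOC_Os07g13700 went the other way in the sensitive line, with 0, 0 and 0 counts in control and 45, 0 and 26 under stress, and had 0, 3 and 0 and 16, 45 and 35 in the tolerant line. A row that passed the filter through the groups where it was high had to differ from those where it was low, so these counts are a description and support no statement on low rows in general. The gypsy row LOC_Os01g36800 fell in both lines, from 0.804 ± 0.367 to 0.137 ± 0.0451 CPM and from 0.514 ± 0.109 to 0.139 ± 0.0463 (mean ± SD, n = 3). The CACTA row LOC_Os03g46280 fell in the sensitive line with a log2 change of -2.72 (SE 0.84, adjusted p 0.0263), and the CACTA row LOC_Os05g14560 in the tolerant line with -2.05 (SE 0.62, adjusted p 0.0215). The call of LOC_Os03g56040 held in all 19 alternative settings that gave a value. These settings rest on the same counts and add no support to it. Leaving out single libraries of the groups compared ended the tolerant call of LOC_Os01g36800 and the calls of the CACTA rows just named, with an edgeR adjusted p of 0.0624 to 0.0976 for LOC_Os01g36800 in the tolerant line, 0.0668 to 0.0888 for LOC_Os03g46280 and 0.051 to 0.0777 for LOC_Os05g14560.

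The 193 members with counts below the filter held 3293 counts in all, 0.294% of the member counts. The 95 retrotransposon rows among them had a median of 15 counts over 12 libraries, and 44 of them were seen in 1 library; the 98 DNA transposon rows had a median of 11, and 50 were seen in 1 library. Their summed level by class was 0.971 to 1.89, 1.07 to 2.13, 1.43 to 2.56 and 1.2 to 2.21 CPM for retrotransposon rows in the order sensitive control, sensitive stress, tolerant control, tolerant stress. For DNA transposon rows it was 1.23 to 1.59, 1.02 to 1.39, 1.41 to 2 and 0.732 to 1.58 CPM. The groups overlapped in both classes and both lines. The number of these rows with a count in a library was 13 to 25 for retrotransposons and 11 to 28 for DNA transposons.

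The best counted of them was LOC_Os03g30030, a gypsy row with 93 counts, with 6, 11 and 7 in the sensitive control, 3, 4 and 0 under stress, 27, 10 and 9 in the tolerant control and 8, 4 and 4 under stress. Its counts under stress lay below those in control in both lines. ChrUn.fgenesh.gene.48, an unclassified transposase row, had 69 counts, 29 of them in tolerant control replicate 3. LOC_Os12g31180, a gypsy row, had 66 counts, 27 of them in sensitive control replicate 2. These rows were not tested.

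Genes that silence transposons were called about as often as the table as a whole. Of 23 listed silencing genes 22 were tested (SDG728 was not analysed here), and 5 were higher and 2 lower under stress in the sensitive line and 6 higher and 2 lower in the tolerant line. Over all tested rows 32.1% and 33.2% were called in the sensitive and tolerant lines. With library totals alone the counts were 13 and 1 in the sensitive line and 9 and 1 in the tolerant line, so the number of rises depended on the scaling. The median log2 fold change of the list was 0.24 in each line, against 0.04 and 0.05 for all tested rows. The list was fixed with earlier results of these data known.

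Of the DNA methyltransferases, MET1a and MET1b, which maintain CG methylation, both rose. MET1a gave 1.3, 0.944 and 1.64 CPM in the sensitive control and 5.56, 6.67 and 6.81 under stress, and 1.74, 2.14 and 1.98 and 5.53, 5.18 and 4.71 in the tolerant line. Its log2 fold changes were 2.29 (SE 0.21, adjusted p 3.14e-06) and 1.39 (SE 0.20, adjusted p 0.000139), with no overlap of groups. MET1b rose from 18 ± 1.57 to 30.9 ± 0.583 CPM in the sensitive line and from 14.1 ± 2.09 to 38.3 ± 2.21 in the tolerant line (mean ± SD, n = 3), by 0.78 (SE 0.11, adjusted p 0.000117) and 1.44 (SE 0.11, adjusted p 5.12e-07). The difference between the lines for MET1b was 0.66 (SE 0.15, adjusted p 0.0366), a call lost in 13 of 20 alternative settings (adjusted p 0.00306 to 0.149 over all). DRM3, a homologue of the de novo methyltransferases, rose by 0.67 (SE 0.15, adjusted p 0.00427) and 0.70 (SE 0.15, adjusted p 0.00285), while DRM2, the de novo methyltransferase of RNA-directed DNA methylation, gave 0.04 (SE 0.17, adjusted p 0.894) and -0.00 (SE 0.17, adjusted p 0.997). CMT2, CMT3a and CMT3b, chromomethylases for non-CG sites, and the remodellers DDM1a and DDM1b did not pass the test in either line.

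In the small RNA branch, the RNA-dependent RNA polymerases RDR2 and RDR6 rose in both lines, RDR2 by 0.85 (SE 0.11, adjusted p 6.11e-05) and 0.91 (SE 0.11, adjusted p 2.95e-05) and RDR6 by 1.14 (SE 0.10, adjusted p 3.77e-06) and 0.98 (SE 0.10, adjusted p 1.12e-05). RDR6 gave 8.65, 8.18 and 8.06 CPM in the sensitive control and 18.7, 19.7 and 16.3 under stress, and 9.67, 7.88 and 9.09 and 17.3, 17.2 and 17.9 in the tolerant line, without overlap. AGO4a, an Argonaute that binds small RNAs guiding DNA methylation, was lower in the tolerant line with a log2 change of -0.63 (SE 0.10, adjusted p 0.000232), lost with library totals alone, and gave -0.09 (SE 0.10, adjusted p 0.513) in the sensitive line. The difference between the lines was -0.54 (SE 0.14, adjusted p 0.06) and did not pass the test. AGO16, of the same clade, was higher in the tolerant line by 0.29 (SE 0.09, adjusted p 0.0299), and lost its call without tolerant control replicate 1 or 3 or tolerant stress replicate 1 or 2 (edgeR adjusted p 0.0544 to 0.127). CLSY3, a remodeller that recruits RNA polymerase IV in Arabidopsis thaliana, was lower in the sensitive line with -1.01 (SE 0.21, adjusted p 0.00253) and gave -0.56 (SE 0.21, adjusted p 0.0561) in the tolerant line. Its call in the sensitive line was lost on both FPKM scales (limma adjusted p 0.0938 and 0.129). The polymerase subunits NRPD1a, NRPD1b and NRPE1, the Dicer-like proteins DCL3a and DCL3b, AGO4b and the histone methyltransferase SDG714 did not pass the test in either line.

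JMJ703, a histone H3K4 demethylase known to repress transposons in rice, was lower in both lines. It gave 51.1, 50 and 53.2 CPM in the sensitive control and 32.8, 34.1 and 38.3 under stress, and 64.2, 61.9 and 55.4 and 38.5, 38.4 and 37.5 in the tolerant line, without overlap, with log2 fold changes of -0.55 (SE 0.08, adjusted p 0.000127) and -0.67 (SE 0.08, adjusted p 2.29e-05), the first of which lost its call with library totals alone. Of the 6 listed demethylation genes, which remove methylated cytosine, 4 were tested as separate rows, since ROS1c and ROS1d share a row and DML3b was below the filter. DML3a rose by 1.24 (SE 0.14, adjusted p 2.16e-05) and 0.83 (SE 0.14, adjusted p 0.000454), and the log2 fold changes of ROS1b were -0.58 (SE 0.16, adjusted p 0.0128) and -0.77 (SE 0.16, adjusted p 0.002). The first of these lost its call with library totals alone, and had an adjusted p of 0.0531 to 0.0565 without sensitive control replicate 2 or sensitive stress replicate 1 in the edgeR fit. Both calls of ROS1b were lost on both FPKM scales, with a limma adjusted p of 0.0768 and 0.107 in the tolerant line. ROS1a, a DNA glycosylase, had -0.38 (SE 0.06, adjusted p 0.000559) in the sensitive line, a direction that turned with library totals alone, and -0.07 (SE 0.06, adjusted p 0.424) in the tolerant line. The row of ROS1c and ROS1d gave 0.18 (SE 0.09, adjusted p 0.174) and 0.14 (SE 0.09, adjusted p 0.294). No listed gene of either kind differed between the lines in control or under stress in the edgeR fit. At an unadjusted p below 0.05 there were 5 silencing genes in control and 3 under stress, and 1 demethylation gene in each. DESeq2 called 3 silencing genes in control and 1 under stress, and 1 demethylation gene in each. Whether these genes and the transposon-annotated loci are linked was not tested.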

How the data were processed

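Total RNA depleted of ribosomal RNA was sequenced as 150-base read pairs, per the labels' protocols, in 12 libraries, 3 in each of 4 groups. Per the submitters' processing notes, the tools edgeR, DESeq2, StringTie 2.1.6, HISAT2 2.2.1 and cutadapt 1.9 were used, in no stated order. The notes name the mouse build mm10, while transcript names carry the tag MSUv7.0 of a rice annotation, so coordinates are those of the deposited table, of unstated build. The authors deposited a whole-number count and an FPKM value for each row and library. Whether strand was used in counting is not given, so reads of overlapping rows on opposite strands cannot be told apart. Of member counts from 1 to 20, 32.1% were multiples of 4, against 39.1% for all rows, and counts divided by 4 were tried as an alternative.

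From the deposited counts, TMM factors, filterByExpr and the quasi-likelihood test of edgeR 4.0.16 (R 4.3.3) were used in 1 fit over 4 group means with 8 residual degrees of freedom, two-sided, with Benjamini-Hochberg adjustment over 33281 rows. The SE is the log2 fold change divided by the square root of F. Control and stress were compared within each line, the lines within each condition, and the responses with each other (5 comparisons). Summed levels use all rows of a class and carry no test. Alternatives were library totals alone, DESeq2 1.42.0, other filters, the replicate block, limma 3.58.1 on log2(FPKM + 1) and log2(FPKM + 0.1), leaving out each library, rows with 1 locus name and, chosen after seeing the data, rows with every description matching and sums without LOC_Os03g01320. The test was checked on simulated counts. Tables were made with pandas 2.3.3 in Python 3.11.15.

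Named loci were the 10 highest by mean FPKM, per comparison and class the 5 called members with the largest rise and the 5 with the largest fall at a mean of 1 CPM or more without overlap of groups, the 3 best counted rows below the filter, and all listed silencing and demethylation genes. Members and lists were chosen with earlier results of these data known. Each SD is over the 3 libraries of a group, a variation that may be technical. No sequence is printed, as no sequence source was used here.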

Additional observations from a re-analysis of the deposited data

Results flagged for a closer look

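In 3 members at 1 CPM or more the stress response differed between the lines by a test of the difference itself in the edgeR fit, each with a more negative log2 fold change in the tolerant line. For LOC_Os12g15530 the difference of log2 fold changes was -0.46, with lower values in all stress libraries of both lines. For LOC_Os01g72610;LOC_Os01g72620 it was -0.61, and the 3 tolerant stress libraries were the lowest of 12. For LOC_Os03g43990 it was -1.33, with a rise in the sensitive and a fall in the tolerant line. The latter pair are rows with another protein description.

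For LOC_Os03g48360 the fitted difference was -13.06, a call lost in 16 of 18 alternative settings. All libraries of the sensitive control and the tolerant stress groups were at 0 counts there, and the other 6 libraries held 7 to 18 counts, so the row passed the filter through those 6, the fitted value depends on the prior count, and the call supports no statement.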

How the results depend on the processing

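Of 74 called results, 39 of members at 1 CPM or more kept direction and call in 720 of 780 alternative values and 14 of members under 1 CPM in 154 of 258, the rest losing the call. The 21 of listed genes kept both in 387 of 420, lost the call in 30 and turned in 3, all for ROS1a in the sensitive line, whose log2 fold change was 0.0329 with library totals alone, 0.0294 on log2(FPKM + 1) and 0.0317 on log2(FPKM + 0.1). The cause was not tested.

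In the sensitive line, 17 members were higher with library totals alone and 6 over rows with every description matching, while 5 were lower with library totals alone and 13 by DESeq2. In the tolerant line, 12 were higher with library totals alone, 15 on log2(FPKM + 1), 16 on log2(FPKM + 0.1) and 3 over rows with every description matching. There, 11 were lower with at least 1 CPM in 3 libraries (fewer members tested), 9 on log2(FPKM + 1) and 11 on log2(FPKM + 0.1). Between the lines DESeq2 called 6 higher in control and 1 higher under stress. Lower under stress were 1 with library totals alone, no filter, the replicate block, either FPKM scale or 1 locus name, and 0 over rows with every description matching. The difference between responses was called for 2 of those rows. With the replicate block the other counts, higher and lower, were 9 and 10, 7 and 14, 2 and 0, and for the difference between responses 0 and 3. The correlation of same-numbered libraries was -0.0123 to 0.0287, so the numbers are not taken to pair them.

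Leaving out 1 library gave 8 to 12 higher and 7 to 10 lower members in the sensitive line, 7 to 8 and 10 to 19 in the tolerant line, 2 to 4 higher in control, 1 to 2 lower under stress, and 3 to 4 for the difference between responses. Leave-one-out means of the retrotransposon sum were 677 to 793, 485 to 499.5, 818 to 909 and 369 to 445 CPM in the sensitive control, sensitive stress, tolerant control and tolerant stress groups, and of the DNA transposon sum 365 to 367, 428 to 442, 372 to 411 and 427 to 442 CPM.

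In the same order of groups, the retrotransposon sum was 309, 355, 267 and 252 CPM without LOC_Os12g15530 and 573, 277, 760 and 291 without LOC_Os03g01320. In the sensitive stress group it was 556 with library totals alone, 471 over rows with 1 locus name and 447 over rows with every description matching. The DNA transposon sum was 268, 291, 281 and 275 without LOC_Os12g12360, which turned the direction in the tolerant line with TMM factors. It was 259, 336, 281 and 364 over rows with 1 locus name, and 143, 172, 152 and 184 over rows with every description matching. With library totals alone it was 310.5 in the sensitive control, 489.6 in the sensitive stress and 496 in the tolerant stress group.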
